A study of Mus musculus with 12 samples.

Results

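Sprouty and Spred proteins are inhibitors that receptor tyrosine kinase signalling builds against itself. The transcripts described here are those of 10 genes of this circuit, taken by symbol from the deposited gene count table: the Sprouty genes Spry1, Spry2 and Spry4, the Spred genes Spred1 and Spred2, the ERK target genes Dusp6, Etv4, Etv5 and Egr1, and the ligand gene Fgf4. They are 10 of 31641 gene symbols in the table, and the rule that picks them is their symbol, not a measured value. They were followed in 12 RNA-seq libraries of mouse embryonic stem cells, pluripotent cells derived from C57BL/6 blastocysts. Lines WT-1 and WT-2 are wild type, and lines Mut-1 and Mut-2 carry the genotype label Tin2 S341X, whose zygosity the labels do not give. Tin2 is the protein of Tinf2, a subunit of the shelterin complex that covers telomeres, and the study asked what its deficiency does to telomeres and to differentiation. All 4 lines were grown with serum and LIF on mouse embryonic fibroblasts, and the RNA came from such co-cultures, so each library can hold RNA of feeder cells. Each line has 3 libraries, which the series' design text calls technical replicates, so the line was the unit for the genotype.

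In embryonic stem cells, FGF4 made by the cells themselves binds FGF receptors and, through the adaptors FRS2 and GRB2 and the kinases RAF and MEK, activates the kinase ERK. ERK signalling is known for preparing these cells to leave the naive state and for the choice of primitive endoderm. ERK in turn switches on genes that damp it: Sprouty and Spred proteins act between the receptor and RAF, and the phosphatase DUSP6 removes phosphates from ERK. The transcription factors ETV4 and ETV5, of the ETS family, and the zinc finger factor EGR1 are widely read as transcriptional outputs of ERK.

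ETS factors bind DNA around the core GGAA. Windows of 250 bases before the annotated start were read from RefSeq (GRCm38.p6) for 7 of the 10 genes. Of these, 3 are printed: Spry2, whose transcript differed most clearly between genotypes, Spry1, its close relative, and Dusp6, whose transcript moved within each line. They run 5′ to 3′ on the strand of the gene, and capitals mark the core on either strand (GGAA or TTCC).
Spry2 (chr14:105896820-105897069, minus strand): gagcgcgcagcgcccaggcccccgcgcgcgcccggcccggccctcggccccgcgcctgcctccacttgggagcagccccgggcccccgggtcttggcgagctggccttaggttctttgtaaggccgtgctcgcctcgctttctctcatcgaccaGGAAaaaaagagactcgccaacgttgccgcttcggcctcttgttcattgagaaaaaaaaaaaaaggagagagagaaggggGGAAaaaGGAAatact
Spry1 (chr3:37639697-37639946, plus strand): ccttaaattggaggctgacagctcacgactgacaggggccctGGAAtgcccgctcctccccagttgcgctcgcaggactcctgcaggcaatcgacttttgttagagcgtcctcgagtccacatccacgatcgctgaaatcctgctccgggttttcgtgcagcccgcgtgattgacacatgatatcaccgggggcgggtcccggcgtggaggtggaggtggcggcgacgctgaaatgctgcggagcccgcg
Dusp6 (chr10:99262981-99263230, plus strand): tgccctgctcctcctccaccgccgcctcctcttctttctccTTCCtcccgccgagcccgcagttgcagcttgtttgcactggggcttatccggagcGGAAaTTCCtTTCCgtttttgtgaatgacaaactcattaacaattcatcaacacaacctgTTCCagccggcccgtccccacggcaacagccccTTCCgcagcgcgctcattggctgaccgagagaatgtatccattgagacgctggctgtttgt

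The Spry2 window held 3 cores, the Spry1 window 1 and the Dusp6 window 6. Among 32851 promoter windows of this length the median was 3 cores, 93.4% held at least 1 and 33.4% held 4 or more. The longer ETS site CCGGAAG, which contains the core, the AP-1 site TGACTCA, the cyclic AMP response element TGACGTCA and the CArG box were in none of the windows of the 7 genes on either strand. They occurred in 6.91%, 4.46%, 1.55% and 1.47% of all windows. The GC box GGGCGG, in 32.7% of all windows, was in windows of Etv5, Fgf4, Spred1, Spred2 and Spry1. It was not in those of Spry2 and Dusp6. Whether the windows of Egr1, Spry4 and Etv4 hold any of these sites was not read. Spry2 and Spry1 shared a GC content of 62.4% and 23 CpG dinucleotides, against a median of 52.4% and 6 over all windows. These letter matches describe the windows and do not locate binding.

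Library totals ran from 14766477 to 17891894 counts, and all 10 genes passed the filter on low counts. Levels are counts scaled to a common library size (CPM) with TMM factors, a normalization that sets most genes equal between libraries. The check on the labels, Tinf2, stood at 62.7 ± 2.22 CPM in wild type against 25.5 ± 0.939 CPM in mutant lines (SD, n = 2 lines). All 12 pluripotency markers examined were detected, with summed levels of 6394 to 7464 CPM across wild-type libraries and 5780 to 7542 CPM across mutant ones. All 21 feeder fibroblast markers were detected too. They took 0.359% to 0.521% of the counts in wild-type libraries and 0.393% to 0.973% in mutant libraries, and the 3 highest were Mut-1 replicate 1, Mut-2 replicate 2 and Mut-2 replicate 1. Counts of WT-1 replicates 1 and 2 nearly coincided (chi-square per degree of freedom 1.62, where other library pairs within lines gave 10.9 to 38.4), yet not within sampling noise.

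Per kilobase of exon, which allows genes to be compared, Fgf4 was the highest of the 10, with a mean of 112.8 CPM per kilobase over the 12 libraries. Etv5 followed at 79.3 and Spry2 at 72.0 CPM per kilobase. In wild type, Etv5 (59.0 to 92.7) lay above Spry2 (30.8 to 53.5), whereas in the mutants their ranges overlapped (62.4 to 88.1 and 77.2 to 122.3 CPM per kilobase). Etv4 (17), Spred2 (14.8), Egr1 (11.1), Spred1 (8.35) and Dusp6 (7.88) came next, and each overlapped its neighbour in this order in both genotypes. Spry1 was at 6.42 and Spry4, the lowest, at 2.55 CPM per kilobase, and the libraries of these neighbours did not overlap in either genotype. Among the Sprouty genes, the Spry2 transcript was thus the most abundant in each genotype.

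Spry2 was the gene that set the genotypes apart. Its transcript was about 2.34-fold more abundant in the mutant lines, and each mutant library lay above each wild-type library. On the line totals Spry2 did not pass the edgeR test (adjusted p = 0.0818), which called 0% of all genes. It lies on chromosome 14, where 420 of 433 genes of at least 2 CPM were also higher. The libraries of Spry1 and Spry4, the other Sprouty genes, overlapped between genotypes, and neither gene passed a test. SPRY2 is an intracellular inhibitor of signalling from FGF and other growth factor receptors.

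In replicates 1, 2 and 3, Spry2 measured 81.8, 79.2 and 98.9 CPM for WT-1 and 64.3, 100.5 and 111.7 CPM for WT-2. It measured 161, 216 and 201 CPM for Mut-1 and 190.5, 255 and 244 CPM for Mut-2. The lowest mutant library, Mut-1 replicate 1, exceeded WT-2 replicate 3, the wild-type library with the most Spry2. Of the genes tested, 1.41% were higher and 0.732% lower without overlap of the 6 and 6 libraries, and Spry2 was the 1 gene of the 10 among them. Over line totals, wild type averaged 89.5 ± 2.98 CPM and the mutants 209 ± 27.5 CPM (SD, n = 2 lines).

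On the line totals, the log2 fold change of Spry2 was 1.22 (SE 0.12, 95% interval 0.94 to 1.51). The adjusted p by edgeR's quasi-likelihood test with Benjamini-Hochberg adjustment was 0.0818, above the threshold of 0.05 and the second smallest of 18749 genes after Tinf2. This test called 0% of all genes, and 0 of the 10, while 9.17% of all genes were higher and 3.88% lower at an unadjusted p under 0.05. With DESeq2 on the same totals, which called 2.6% of genes, the adjusted p of Spry2 was 3.44e-12. With limma on the 12 libraries and the line as a random block it was 0.000961, where 1.41% were called. The fit with the line as a block estimated a correlation of -0.00251 between libraries of a line, so it treats them nearly as independent. Leaving out WT-2 gave an edgeR adjusted p of 0.614, and leaving out WT-1, Mut-1 or Mut-2 gave 0.0251, 0.00459 and 0.0042, each with a single line on one side. Leaving out 1 library at a time gave 0.0322 to 0.179.

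A single edgeR fit over the 12 libraries served to compare pairs of lines, and its p-values measure only the spread between libraries of a line, which may be technical. Spry2 rose in Mut-1 against WT-1, by a log2 fold change of 1.15 (SE 0.20, edgeR adjusted p = 0.0254), where 0.296% of 16533 genes were called higher. It rose in Mut-2 against WT-2 by 1.32 (SE 0.20, edgeR adjusted p = 0.0125), where 0.732% were called higher. The difference between these 2 changes was 0.16 (95% interval -0.43 to 0.76, edgeR adjusted p = 0.881), in a test that called 0.0726% of genes and 0 of the 10. Spry2 was the 1 gene of the 10 called in either pair.

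The pairs crossed by line number, added after the data were seen, share their lines with the first ones. They gave Spry2 log2 fold changes of 1.06 for Mut-1 against WT-2 (edgeR adjusted p = 0.0270, 0.593% of genes called higher) and 1.41 for Mut-2 against WT-1 (edgeR adjusted p = 0.0100, 0.224% called higher). Within a genotype the Spry2 differences were smaller, at 0.09 for WT-2 against WT-1 (95% interval -0.33 to 0.51) and 0.25 for Mut-2 against Mut-1 (95% interval -0.16 to 0.67). Neither passed the edgeR test (adjusted p of 0.954 and 0.845).

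The calls in pairs rested on single libraries, while the size did not. Mut-1 against WT-1 lost the Spry2 call in the edgeR fit without WT-1 replicate 1 (adjusted p = 0.199), WT-1 replicate 2 (0.193), Mut-1 replicate 2 (0.150), Mut-1 replicate 3 (0.169) or Mut-2 replicate 2 (0.0537). It also lost it with the near-identical WT-1 replicates 1 and 2 summed as 1 library (adjusted p = 0.218). Mut-2 against WT-2 lost it without Mut-2 replicate 2 (adjusted p = 0.103). Of the crossed pairs, Mut-1 against WT-2 lost it without WT-2 replicate 1 (0.102) or 2 (0.0778), or Mut-1 replicate 2 (0.110) or 3 (0.167). Mut-2 against WT-1 lost it without WT-1 replicate 1 (0.0947) or 2 (0.0936), or Mut-2 replicate 2 (0.0815). Both crossed pairs also lost it with WT-1 replicates 1 and 2 summed, and without the 3 libraries of highest feeder marker share. Their fits without 1 library spanned 0.85 to 1.22 and 1.30 to 1.52. With 1 library left out at a time, the log2 fold change of Spry2 stayed between 1.05 and 1.27 in the pair of line number 1 and between 1.10 and 1.48 in the pair of line number 2.

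Feeder markers were higher in the mutant line totals: all 21 had a log2 fold change above 0, with a median of 0.58. The excess lay in 3 mutant libraries (0.828% to 0.973% of counts). The other mutant libraries, at 0.393% to 0.543%, overlapped the wild-type ones at 0.359% to 0.521%. Of 8 primitive endoderm markers, 7 were above 0 on the line totals too (median 0.55). Their sum was highest in the same 3 mutant libraries (355 to 392 CPM, against 229 to 303 CPM in wild type). Above 0 were also 5 of 5 blood and macrophage markers tested (median 0.21), 3 of 5 neural ones (0.04) and 3 of 12 pluripotency ones (-0.06). In bulk samples, a different number of cells of a type and a different amount of RNA per cell cannot be told apart. Fitted with the feeder share as covariate, the log2 fold change of Spry2 was 1.34 (limma adjusted p = 0.0044). Leaving out the 3 libraries richest in feeder RNA leaves 1 Mut-2 library, assumed to vary like the others. The log2 fold change of Spry2 was then 1.34 on the line totals (edgeR adjusted p = 0.161), 1.27 in Mut-1 against WT-1 (0.0514) and 1.39 in Mut-2 against WT-2 (0.158). The difference was therefore as large without those libraries, while the calls were not made.

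**Figure D1:**
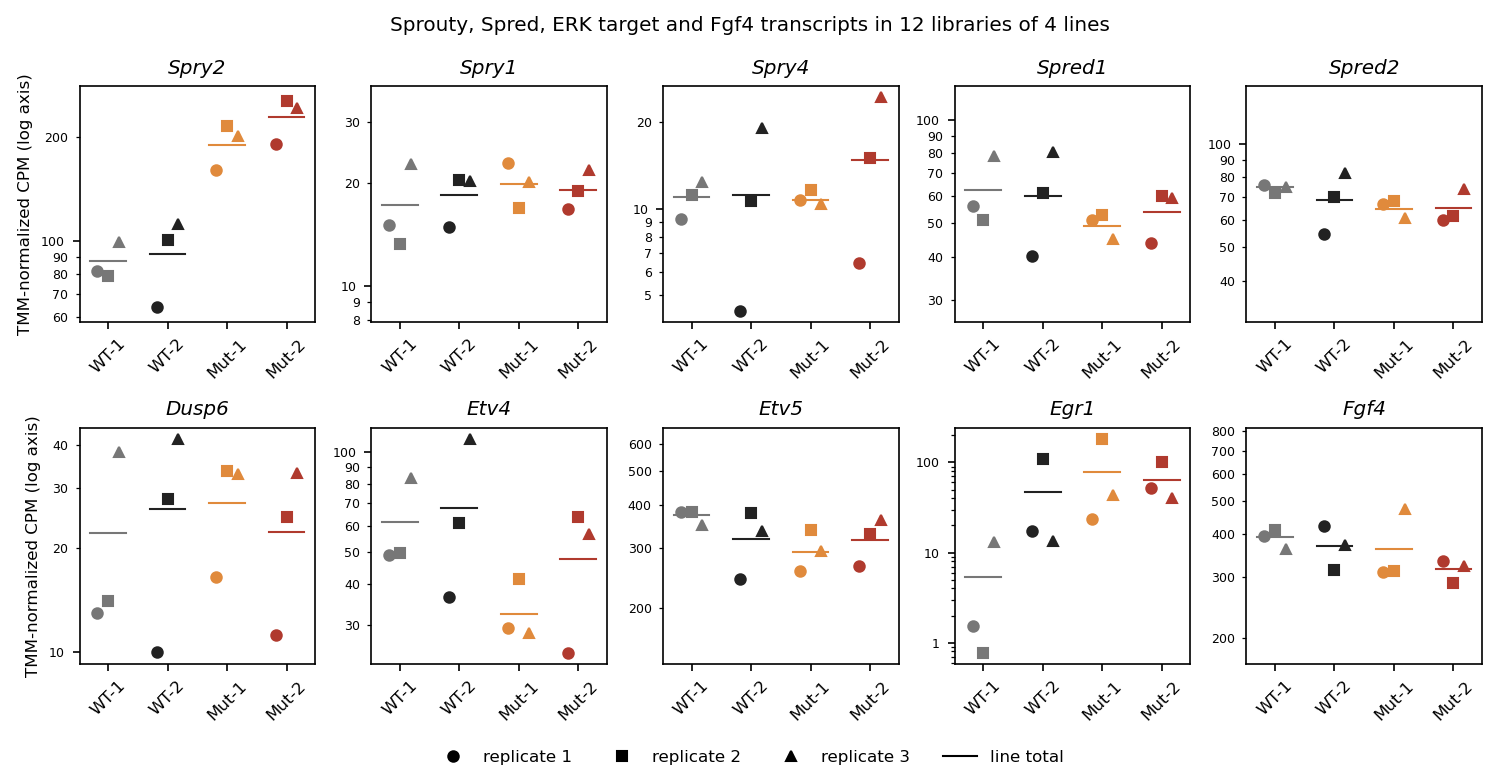
TMM-normalized CPM (log axis) of the 10 genes in each library, with circles, squares and triangles for replicates 1, 2 and 3 and a bar for the line total. The 6 mutant libraries of Spry2 lie between 161 and 255 CPM, above the 6 wild-type libraries at 64.3 to 111.7 CPM, and in the other 9 genes the genotypes overlap.

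Spry2 is on chromosome 14 (GRCm38, chr14:105891947-105896819, minus strand), the chromosome that also carries Tinf2, and the other 9 genes are not. Of 433 genes of chromosome 14 with a mean of at least 2 CPM, 420 had a log2 fold change above 0 between genotypes. Their median was 0.37, against -0.03 for 11915 genes of the other autosomes. Spry2 ranked second on its chromosome, 0.85 above the chromosome's median, and the 95th percentile of the chromosome was 0.79. Only 5 of the 433 genes had a log2 fold change of at least 1.

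The genes beside Spry2 were also higher, by less. On the proximal side, the ubiquitin ligase gene Rnf219 had a log2 fold change of 0.92 (SE 0.21), Gm17066 of 0.15, Rbm26 of 0.28, Ndfip2 of 0.40 and Gm10076 of 0.53. On the distal side, Trim52 was at 0.56, Slitrk5 at 0.69, the miRNA host gene Mir17hg at 0.60 (SE 0.12), the glypican gene Gpc6 at 0.76 (SE 0.16) and Tgds at 0.35. These 10 neighbours reached from 1369 kb before Spry2 to 12215 kb after it, with a median of 0.54. None passed the edgeR test of line totals, but this test called 0 of 18749 genes, so it cannot set them apart from Spry2. What part of the Spry2 difference belongs to the shift of its chromosome was not tested.

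**Figure D2:**
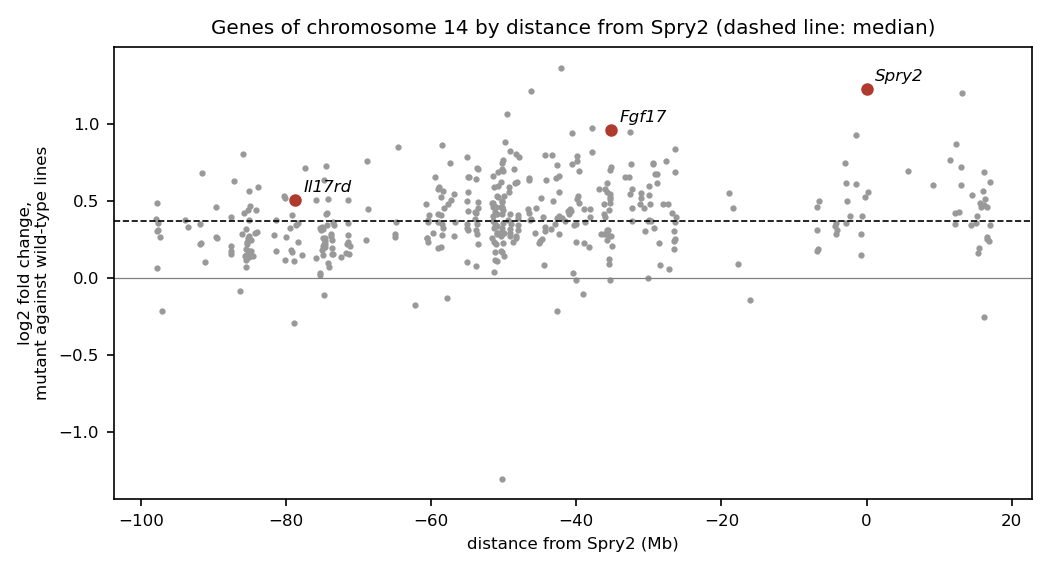
Log2 fold change between mutant and wild-type lines (edgeR, line totals) of 433 genes of chromosome 14, by distance from Spry2 in megabases, with a dashed line at their median of 0.37. Spry2, at 1.22, lies near the top of its chromosome, and 2 other pathway genes there, Fgf17 and Il17rd, are marked.

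The 5 genes whose pattern over the 12 libraries was most like that of Spry2 were sought among genes of at least 5 CPM, by the root mean square difference of centred log2(CPM + 0.5). They were Shisa2 (0.20), Xkr6 (0.25), Lpar6 (0.25), Uggt2 (0.27) and Zfp961 (0.27). The first 4 are on chromosome 14, and Zfp961 is on chromosome 8. Spry2 itself departed from its mean by 0.67. With a pseudocount of 2, 4 of the 5 were the same.

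Spry1, on chromosome 3 (chr3:37639947-37644598), showed no difference between genotypes beyond its spread. Its libraries ran from 13.3 to 22.7 CPM in wild type (median 17.6) and from 16.8 to 22.8 CPM in the mutants (median 19.5), and the ranges overlapped over most of their length. The log2 fold change on line totals was 0.13 (95% interval -0.19 to 0.45, edgeR adjusted p = 0.741). Its exons share 710 bases with Gm42922 on the opposite strand, and without a stated strand setting reads of these genes cannot be told apart there. A rise of the size seen in Spry2 lies outside this interval.

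Spry4, on chromosome 18 (chr18:38586247-38601415), varied more within lines than between genotypes. In wild type, WT-1 gave 9.19, 11.2 and 12.4 CPM in replicates 1, 2 and 3, and WT-2 gave 4.41, 10.6 and 19.2 CPM. In the mutants, Mut-1 gave 10.7, 11.6 and 10.4 CPM, and Mut-2 gave 6.47, 15.1 and 24.6 CPM. WT-2 and Mut-2 spanned 4.35-fold and 3.8-fold, with replicate 1 lowest and replicate 3 highest in both, whereas WT-1 and Mut-1 spanned 1.35-fold and 1.12-fold. The genotype difference was 0.21 on the log2 scale (95% interval -0.24 to 0.66, edgeR adjusted p = 0.695).

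SPRED1 and SPRED2 hold RAF in check by bringing the RAS inactivator neurofibromin to the membrane. Spred1 ran from 40.3 to 80.8 CPM in wild type (median 58.8) and from 43.8 to 60.1 CPM in the mutants (median 51.9). Spred2 ran from 54.6 to 82.0 CPM (median 73.5) and from 60 to 74 CPM (median 64.4). The mutant ranges lay within the wild-type ranges for both genes. Their log2 fold changes were -0.25 (95% interval -0.51 to 0.00) and -0.15 (95% interval -0.39 to 0.10), with edgeR adjusted p-values of 0.389 and 0.60. In Mut-1 against WT-1, the 3 libraries of Spred2 lay below the other 3 (60.8 to 68.0 against 72.0 to 75.8 CPM), as did 7.56% of all genes.

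Of the 4 ERK target genes, none passed the edgeR test of genotype, which called 0% of all genes, or of either pair. Etv4 was lower and Egr1 higher in the mutants by more than Dusp6 and Etv5, but the wild-type and mutant libraries of all 4 overlapped. DUSP6 is the ERK phosphatase, and its transcript is often used as a readout of ERK activity.

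Etv4 had the most negative log2 fold change of the 10. By replicate, WT-1 stood at 48.9, 49.5 and 83.3 CPM and WT-2 at 36.5, 61.1 and 109.7 CPM. By the same order, Mut-1 stood at 29.5, 41.5 and 28.6 CPM and Mut-2 at 24.8, 63.8 and 56.8 CPM. Mut-1 lay below WT-1 in each library, as for 7.56% of all genes, while Mut-2 overlapped WT-2. Over line totals, wild type averaged 64.6 ± 4.60 CPM and the mutants 40.0 ± 10.6 CPM (SD, n = 2 lines), a log2 fold change of -0.69 (SE 0.18, 95% interval -1.10 to -0.28).

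For Etv4 the unadjusted p was 0.00467 and the adjusted p 0.223 by edgeR, and DESeq2 on the same totals gave an adjusted p of 0.0123. With limma on the 12 libraries it was 0.226, and a feeder covariate made it 0.645 at a log2 fold change of -0.59. The pair of line number 1 gave -0.87 (edgeR adjusted p = 0.436) and that of line number 2 gave -0.51 (0.586). Without WT-2 replicate 3, the library with the highest Etv4 level, the second of these became -0.01, and without Mut-2 replicate 1 it became -0.20. Without line Mut-2 the edgeR test of the totals called Etv4 lower (-0.99, adjusted p = 0.0225), with Mut-1 alone on the mutant side.

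Etv5 encodes the close relative of ETV4. It ran from 242.3 to 380.2 CPM in wild type (median 364) and from 255.9 to 361.5 CPM in the mutants (median 311), and the mutant range lay within the wild-type range. The log2 fold change was -0.19 (95% interval -0.46 to 0.08, edgeR adjusted p = 0.534). In Mut-1 against WT-1 its libraries were lower without overlap (255.9 to 337 against 349 to 380.2 CPM), as were those of 7.56% of all genes. In Mut-2 against WT-2 the log2 fold change was 0.00.

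Dusp6 told the replicates of a line apart and not the genotypes. In wild type, WT-1 gave 12.9, 14 and 38 CPM in replicates 1, 2 and 3, and WT-2 gave 9.96, 27.9 and 41.4 CPM. In the mutants, Mut-1 gave 16.5, 33.6 and 32.9 CPM, and Mut-2 gave 11.2, 24.6 and 33.1 CPM. Replicate 1 was the lowest library in all 4 lines, and each line spanned between 2.03-fold and 4.16-fold. Over line totals, wild type averaged 24.0 ± 2.76 CPM and the mutants 24.7 ± 3.39 CPM (SD, n = 2 lines), a log2 fold change of 0.04 (95% interval -0.32 to 0.40, edgeR adjusted p = 0.938).

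Egr1, an immediate early gene induced within minutes of many stimuli, was the most variable of the 10. By replicate, WT-1 stood at 1.52, 0.769 and 13.1 CPM (26, 13 and 234 counts) and WT-2 at 17.1, 108.2 and 13.3 CPM. By the same order, Mut-1 stood at 23.3, 183.5 and 44.1 CPM and Mut-2 at 51.6, 100.1 and 40.4 CPM. WT-1 was below the other 3 lines, replicate 2 was highest in WT-2, Mut-1 and Mut-2, and the span within WT-1 was 17-fold. On the line totals the log2 fold change was 1.44 (SE 0.73, 95% interval -0.25 to 3.14, edgeR adjusted p = 0.447). It was 0.61 without line WT-1, 3.75 without line WT-2 and 2.83 without WT-2 replicate 2 alone, and was not called in these fits (edgeR adjusted p of 0.177, 0.0746 and 0.204).

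The 2 pairs of lines gave Egr1 different values. It was 4.01 higher on the log2 scale in Mut-1 against WT-1 (SE 1.09, edgeR adjusted p = 0.214), where the libraries did not overlap, as for 8.77% of genes in that direction. Without WT-1 replicate 3 it was called, at 6.18 (edgeR adjusted p = 0.0346), and without Mut-1 replicate 2 it was 2.70 (0.424). It was 0.47 in Mut-2 against WT-2 (SE 0.94, edgeR adjusted p = 0.865). The difference of these changes was -3.54 (SE 1.40, edgeR unadjusted p = 0.0251, adjusted p = 0.573). WT-2 against WT-1 gave 3.16 (SE 1.06, edgeR adjusted p = 0.531), with no overlap of their libraries, as for 6.97% of genes.

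Fgf4, the ligand that stem cells make, stayed near 1 level. Its libraries ran from 314.7 to 424.4 CPM in wild type (median 384) and from 289.8 to 474 CPM in the mutants (median 318). The line totals gave 381 ± 15.5 CPM and 340.1 ± 32.9 CPM (SD, n = 2 lines each). The log2 fold change was -0.17 (95% interval -0.42 to 0.09, edgeR adjusted p = 0.568).

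**Figure D3:**
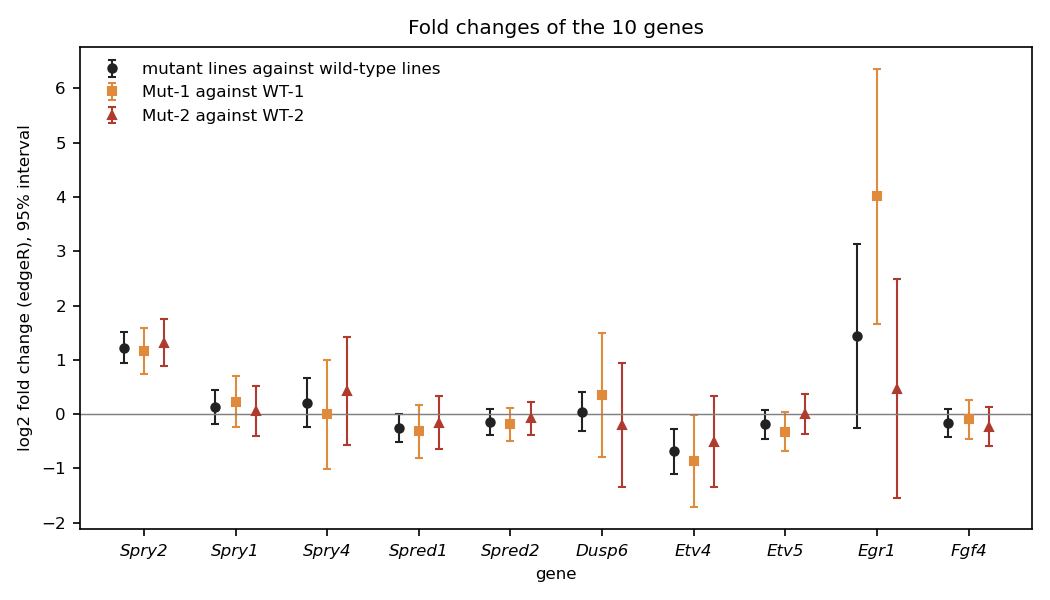
Log2 fold changes of the 10 genes with 95% intervals from edgeR, for mutant against wild-type lines (circles, line totals) and for the pairs Mut-1 against WT-1 (squares) and Mut-2 against WT-2 (triangles), whose intervals reflect the spread between libraries of a line. Spry2 lies at 1.22, 1.15 and 1.32 with each interval above 0, and Egr1 has the widest intervals.

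Between genotypes the 10 genes thus went no single way: 5 had a log2 fold change above 0 and 5 below, where 49.8% of all genes were above 0, with a median of -0.05, where the median of all 18749 genes was 0.00. At an unadjusted p under 0.05 in edgeR, Spry2 was higher and Etv4 lower. The comparison of WT-2 with WT-1 called 0.0181% of genes and 0 of the 10, and that of Mut-2 with Mut-1 called 0.26% of genes and 0 of the 10. At an unadjusted p under 0.05 in edgeR, the first held 1 of the 10, Egr1, beside 7.61% of all genes, and the second 0, beside 6.88%. With a block for replicate number the edgeR calls rose from 3 to 6 genes (0.0363%) between wild-type lines and from 43 to 68 (0.411%) between mutant lines, still with 0 of the 10. In Mut-1 against WT-2 they rose from 124 to 225 (1.36%), with Spry2 the 1 of the 10.

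Within lines, 4 of the 10 genes stood among the most variable transcripts. The standard deviation of log2(CPM + 0.5) between libraries of a line was 1.47 for Egr1, 0.83 for Dusp6, 0.70 for Spry4 and 0.60 for Etv4. Of 11412 genes with at least 5 CPM, 99.96%, 99.5%, 98.9% and 97.8% varied less, the median being 0.21. Spred1 was at 0.33, Spry2 at 0.28, Spry1 at 0.27, Etv5 at 0.23, Fgf4 at 0.22 and Spred2 at 0.17, and 34.8% of genes varied less than Spred2.

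Most of the 10 genes lay low together in some libraries. In replicate 1 of WT-2 and of Mut-2, 9 of the 10 were below their line's mean, beside 50.8% and 53.3% of all genes. In replicate 1 of WT-1 and of Mut-1, and in WT-1 replicate 2, it was 7 of 10, beside 50.4%, 51.4% and 50.4% of all genes. In replicate 3 of WT-2 and of Mut-2, 1 of the 10 was below, beside 51.2% and 46.9% of all genes. Fgf4 was the gene that went the other way in replicate 1 of WT-2 and of Mut-2.

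Many immediate early genes, from a list of 14, were also low in replicate 1. Of the 12 with at least 5 CPM, 9 lay below their line's mean in replicate 1 of each line, Fos and Jun among them. In a single replicate 1 library, 50.4% to 53.3% of all genes were below. The share of all genes below in replicate 1 of all 4 lines was not counted. Ier3 went the other way, with replicate 3 lowest and replicate 1 above the mean in all 4 lines, Btg2 was above its mean there in 3 lines, and Ier5 was lowest there in 1 line. The summed level of the list, to which abundant genes contribute most, was 550, 562 and 1317 CPM in replicates 1, 2 and 3 of WT-1 and 637, 1342 and 1338 CPM in those of WT-2. For the mutants it was 699, 1581 and 1626 CPM (Mut-1) and 670.0, 1536 and 1381 CPM (Mut-2). The sum was lowest in the libraries where Dusp6 was lowest: replicate 1 of each line, and replicate 2 of WT-1 beside it. Fos had a standard deviation within lines of 2.36, above that of Egr1. What set these libraries apart was not tested.

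**Figure D4:**
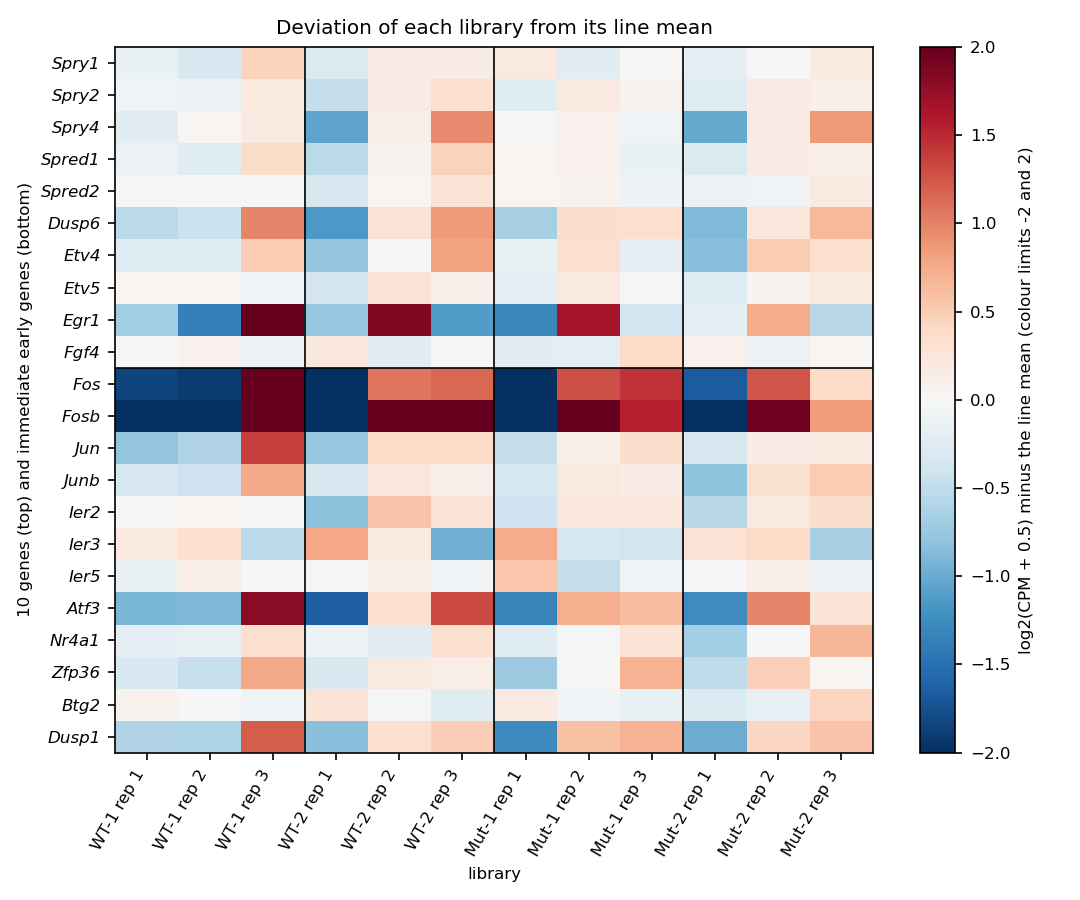
Deviation of each library from the mean of its line in log2(CPM + 0.5), for the 10 genes (above the line) and 12 immediate early genes of at least 5 CPM (below it), with colours limited at -2 and 2. Dusp6 is below its line mean in replicate 1 of each line, as are 9 of the 12 immediate early genes, while Ier3 is above it in each.

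The other genes of the pathway were taken from 6 lists of 78 symbols, 77 of them in the table and 75 tested on the line totals. None passed the edgeR test, and at an unadjusted p under 0.05 it had 18 higher and 1 lower, against 9.17% and 3.88% of all genes. By sign, 46 were higher and 29 lower in the mutants, with a median of 0.11. For FGF ligands 12 of 14 tested were higher (median 0.56), for other ERK target genes 8 of 10 (median 0.34) and for immediate early genes 13 of 14 (median 0.45). The ligands and targets include genes that fibroblasts are known to express, and feeder markers were higher in the same direction. The part of feeder RNA in these counts and medians was not tested. Named genes that changed sign with the feeder share fitted are given in the closing section. Between the wild-type lines, WT-2 against WT-1, 11 of 14 immediate early genes were above 0 as well (median 0.51). Their median was 0.71 in Mut-1 against WT-1 and 0.19 in Mut-2 against WT-2, and their sum was lowest in the near-identical WT-1 replicates 1 and 2.

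Fgf17, a ligand gene on chromosome 14, was the only pathway gene called in either pair of equal line number, of 74 tested there. Its level by replicate was 7.14, 7.46 and 5.71 CPM for WT-1 and 9.78, 12.3 and 9.92 CPM for WT-2. It was 13.9, 15.8 and 10.6 CPM for Mut-1 and 18.1, 21 and 23.5 CPM for Mut-2. It rose in Mut-2 against WT-2 (log2 fold change 0.97, edgeR adjusted p = 0.0368) and stood at 0.99 in Mut-1 against WT-1 (0.0614). The call in Mut-2 against WT-2 was lost in 9 of 12 edgeR fits without 1 library, at log2 fold changes of 0.87 to 1.08 over the 12. It was also lost with the feeder share fitted (0.98, adjusted p = 0.102) and without the 3 libraries richest in feeder RNA (1.13, 0.234). In the crossed pair Mut-2 against WT-1, Fgf17 was called at 1.62 (edgeR adjusted p = 0.00676), and at 1.63 with the feeder share fitted (0.0265). The lines of 1 genotype also differed, by 0.66 in wild type and 0.64 in the mutants on the log2 scale, with edgeR adjusted p-values of 0.503 and 0.421.

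Among the other inhibitors, 4 of 11 were higher and 7 lower (median -0.03). Il17rd, which encodes the FGF antagonist SEF and is also on chromosome 14, was at 60.6 ± 6.00 CPM in wild type against 85.9 ± 6.94 CPM in mutant lines (SD, n = 2 lines), a log2 fold change of 0.50 (SE 0.12, edgeR adjusted p = 0.214). Spred3, the third Spred gene, was at 0.38 (SE 0.15, edgeR adjusted p = 0.333). The phosphatase genes Dusp5 and Dusp7 were at 0.40 and -0.31 (edgeR adjusted p-values of 0.387 and 0.453).

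The receptors divided evenly, with 3 of 6 higher and a median of 0.01. Fgfr1, the main FGF receptor of embryonic stem cells, was at 138 ± 12 CPM in wild type against 142 ± 5.65 CPM in mutant lines, and Fgfr2 at 3.75 ± 0.610 and 4.60 ± 1.37 CPM (SD, n = 2 lines each). Of the adaptors and kinases between receptor and ERK, 6 of 20 were higher and 14 lower, with a median of -0.08. Shc1, an adaptor gene, had the smallest p of these, at -0.29 (SE 0.11, edgeR adjusted p = 0.326). Gab1 was at -0.21 (edgeR adjusted p = 0.528), and at -0.06 without line Mut-2. A block for replicate number, by which libraries of WT-2 and Mut-2 deviated together, added to the edgeR fit raised the calls in Mut-2 against WT-2 from 153 to 328 genes (1.98%). The block was fitted over the libraries of all lines, those of WT-1 included, which did not pair with either mutant line. Gab1, an adaptor gene, was then called lower (-0.41, edgeR adjusted p = 0.0399). Without the block Gab1 had the same log2 fold change there (edgeR adjusted p = 0.0960), and DESeq2 called it at -0.43 (adjusted p = 0.0158). Spry2 remained the 1 of the 10 called with the block.

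Among other targets, Phlda1 was at 3.29 ± 0.018 CPM in wild type against 6.31 ± 0.136 CPM in mutant lines (SD, n = 2 lines), a log2 fold change of 0.94 (SE 0.20, edgeR adjusted p = 0.181, DESeq2 adjusted p = 0.016). The AP-1 genes Fosl1 and Fosl2 were at 0.63 and 0.53, and Myc at 0.64 (edgeR adjusted p-values of 0.237 to 0.302). Without line Mut-2, Fosl2 was at 0.27 and Myc at 0.33. Egr2, a relative of Egr1, was at 1.82 (SE 0.47, edgeR adjusted p = 0.223, DESeq2 adjusted p = 0.00705), but at 1.2 without line WT-1 and 2.93 without line WT-2. Ier3 was at 0.43 on the line totals but at -0.19 when the 3 libraries richest in feeder RNA were dropped.

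The 4 tested pathway genes on chromosome 14, Fgf9, Fgf17, Il17rd and Egr3, were all higher, with a median log2 fold change of 0.83. Fgf9 and Egr3, named here after their values were seen, averaged 0.588 and 1.11 CPM over the libraries. Over the 71 pathway genes elsewhere, 42 were higher and 29 lower, with a median of 0.06. On chromosome 14 as a whole, 420 of 433 genes (97%) were above 0, so this direction was shared by most genes there and not particular to pathway genes. What part of these differences belongs to the shift of the chromosome was not tested.

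**Figure D5:**
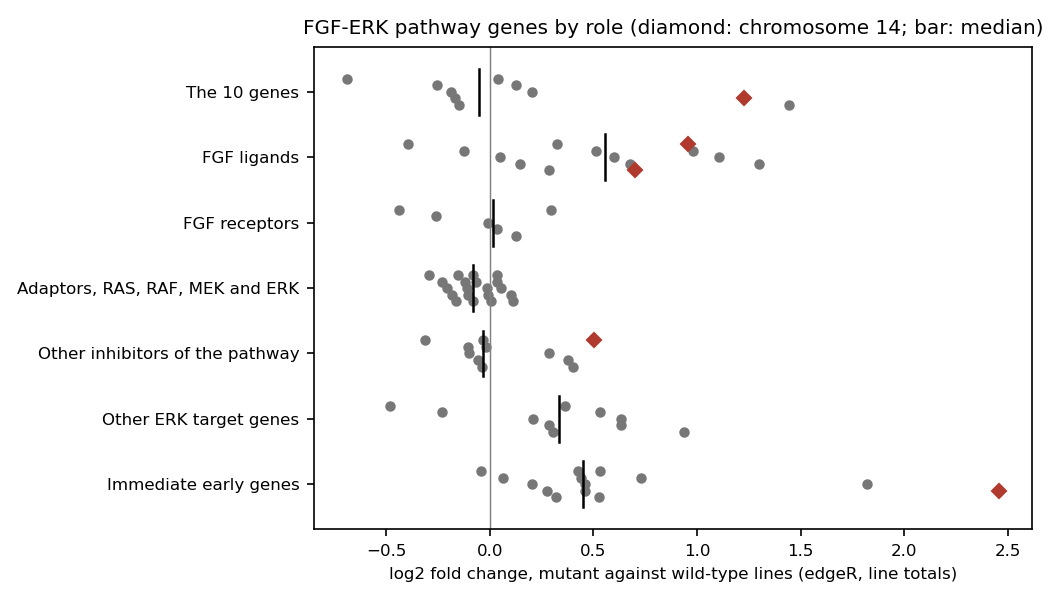
Log2 fold changes between mutant and wild-type lines (edgeR, line totals) of the 10 genes and of 75 other FGF-ERK pathway genes by role, with a bar at the median of each row and diamonds for genes on chromosome 14. All 5 diamonds, Spry2 among them, lie above 0, and the adaptors and kinases cluster near 0 with a median of -0.08.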

How the data were processed

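The deposited table gives raw read counts per gene symbol, not normalized by the authors. The build was GRCm38 and the tools included HISAT2 2.1.0, Bowtie2 2.2.3, HTSeq 0.6.0 and bcl2fastq, per the submitters' processing notes; which tool did what, which annotation and which strand option served is not given in the sources used here. Positions and exon lengths came from GENCODE M21 (28636 symbols with 1 position).

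Counts were summed per line for the genotype, or kept as 12 libraries in 4 line groups for pairs of lines. Both were tested over all genes with edgeR 4.0.16 (quasi-likelihood, TMM, filterByExpr, Benjamini-Hochberg, adjusted p under 0.05) in R 4.3.3. The fits were also run on simulated counts of independent libraries without differences between lines of a genotype. That run cannot tell how the tests behave where such lines differ. Standard errors are the log2 fold change over the root of F. Alternatives used DESeq2 1.42.0 and limma 3.58.1 (voom, line as random block).

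The genes and lists were chosen with earlier results of these data known. Named pathway genes have a mean of at least 2 CPM. They are up to 4 per list by smallest p between genotypes, and up to 2 more by smallest p in each pair of equal line number. Fos, Fgf9 and Egr3 were named outside this rule. Replicate numbers were taken to pair 2 lines where all 3 correlations of deviations passed 0.1: WT-2 and Mut-2 (0.695, 0.390 and 0.114), WT-2 and Mut-1, WT-1 and WT-2, and Mut-1 and Mut-2. WT-1 did not pair with either mutant line.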

Additional observations from a re-analysis of the deposited data

Results flagged for a closer look

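In each of 20 groups of 6 libraries (10 genes, 2 genotypes), the highest and the lowest value were compared with the rest by Dixon's criterion, which flags about 1 in 20 groups by chance. The 95% criterion was met by 3 values. The lowest wild-type library of Etv5 was WT-2 replicate 1 at 242.3 CPM, below the next at 334.6 CPM. The highest wild-type library of Egr1 was WT-2 replicate 2 at 108.2 CPM, above the next at 17.1 CPM. The highest mutant library of Fgf4 was Mut-1 replicate 3 at 474 CPM, above the next at 334.4 CPM.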

How the results depend on the processing

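With 2 lines per genotype and 3 libraries per line, small differences are not detectable, and where a value below changed with a setting the cause was not tested. Under the alternatives run, Spry2 kept its direction in each of the 4 pairs of a mutant with a wild-type line and between genotypes. Between genotypes, leaving out 1 library or line kept its log2 fold change between 1.08 and 1.35.

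The number of the 10 genes called between genotypes, 0 with edgeR, became 2 with DESeq2 and 1 without a filter on low counts. It was 1 with limma and the line as a random block, 1 with the feeder share added and 1 with the replicate block added. Called pathway genes went from 0 to 3 with DESeq2, 3 with limma, 1 with limma and the replicate block, and 1 without the filter. In Mut-1 against WT-1, the 1 gene of the 10 called became 3 without the filter, 0 with WT-1 replicates 1 and 2 summed, and 0 after dropping the 3 libraries richest in feeder RNA. Pathway calls there went from 0 to 2 with DESeq2, 1 with the feeder share and 14 without the filter. In Mut-2 against WT-2, the 1 of 10 became 0 after dropping the 3 libraries. The 1 pathway call there became 3 with DESeq2, 10 without the filter, and 0 with WT-1 replicates 1 and 2 summed, with the feeder share, without the 3 libraries or when a log2 change of 1 or more was also required. Without the filter, WT-2 against WT-1 and the difference of the pairs each called 1 of the 10 in place of 0. Leaving out 1 library or line gave 0 to 2 of the 10 between genotypes, 0 to 2 in Mut-1 against WT-1 and 0 to 1 in Mut-2 against WT-2. For pathway genes it gave 0 to 2, 0 to 4 and 0 to 2.

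With the replicate number as a block, Mut-1 against WT-1 called 2 pathway genes and Mut-2 against WT-2 called 2. Numbers do not pair WT-1 with Mut-1 (correlations of deviations -0.130, 0.217 and 0.104), where the block raised the calls from 54 to 100 genes. The block changed the call of none of the 10 genes in these 2 pairs.

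Several log2 fold changes near 0 changed sign. Between genotypes, limma with the feeder share gave -0.14 for Fgf2, -0.0020 for Fgfr2, -0.20 for Fgfrl1, -0.077 for Fgfr1 and -0.078 for Ier3. Without the 3 libraries these were -0.12, -0.065, -0.16, -0.065 and -0.19. In Mut-1 against WT-1, Spry4 became 0.21 with the feeder share, 0.047 with the replicate block and 0.0064 without the 3 libraries, where Fgf4 became 0.0090. In Mut-2 against WT-2 the feeder share gave -0.010 for Spry1, 0.34 for Dusp6 and 0.17 for Etv5. Without the 3 libraries Spred2 became 0.091, Dusp6 0.31, Etv5 0.17 and Egr1 -0.21. Etv5 also became 0.0011 with chromosome 14 left out of the normalization and 0.0072 with the replicate block.

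Leaving out 1 library or line also changed signs. Between genotypes the ranges were -0.059 to 0.46 for Spry4, -0.18 to 0.32 for Dusp6, -0.49 to 0.16 for Fgf3, -0.84 to 0.14 for Fgfr4, -0.047 to 0.57 for Fgfr2, -0.042 to 0.33 for Fgfrl1, -0.039 to 0.13 for Fgfr1 and -0.013 to 0.66 for Dusp5. In Mut-1 against WT-1 they were -0.35 to 0.0068 for Fgf4 and -0.12 to 0.094 for Spry4. In Mut-2 against WT-2 they were -0.61 to 0.27 for Dusp6, -0.033 to 2.07 for Egr1, -0.18 to 0.14 for Etv5, -0.40 to 0.097 for Spred1, -0.24 to 0.064 for Spred2, -0.096 to 0.14 for Spry1 and -0.083 to 1.02 for Spry4.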
